A study of Mus musculus with 48 samples.

Results

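Fc receptors and myeloid C-type lectins are the surface receptors by which macrophages, monocytes, neutrophils and dendritic cells recognise antibody-coated material, fungal sugars and crystals. The 10 genes described here are Fcgr1, Fcgr2b, Fcgr3, Fcgr4, Fcer1g, Clec7a, Clec4n, Clec4a1, Clec4a3 and Clec12a. They were picked by name, with earlier results of these data known. All 10 are among the 18782 genes of the table, and all 10 passed the filter on low counts that left 14431 genes to test. The data are RNA-seq libraries of thoracic aorta from 48 C57BL/6J mice, 1 library per mouse, with 10 MaCon, 4 MaNonAD, 7 MaAAD, 10 FeCon, 8 FeNonAD and 9 FeAAD, where Ma and Fe stand for male and female. Con mice drank plain water. NonAD and AAD mice drank 0.4% β-aminopropionitrile (BAPN), which blocks the cross-linking of collagen and elastin, for 28 days from 3 weeks of age. AAD mice had developed aortic dissection or aneurysm, which the labels do not separate, and NonAD mice showed no detectable lesion. A NonAD group therefore holds animals chosen by outcome among those still alive at the end. The AAD groups hold survivors too, and the paper reports more deaths by rupture in BAPN males than in BAPN females.

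Fc gamma receptors bind the constant part of IgG. Fcgr1, Fcgr3 and Fcgr4 are activating and signal through the ITAM of the shared gamma chain, which Fcer1g encodes, whereas Fcgr2b carries its own ITIM and restrains the same pathway. Among the lectins, Clec7a (Dectin-1) binds fungal β-glucans, Clec4n (Dectin-2) binds mannose-rich sugars and signals through the gamma chain, Clec12a carries an ITIM and binds uric acid crystals, and Clec4a1 and Clec4a3 belong to the family of the dendritic cell immunoreceptor. In a healthy vessel these genes are read mostly in resident macrophages.

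Because the genes are all read in myeloid cells, the bases before their starts are shown for the letters GAGGAA, the core to which PU.1, an ETS-family factor of myeloid cells, is known to bind. The windows come from RefSeq on GRCm38.p6, and 9 of the 10 genes have one. Of these, 7 held the letters on either strand within 250 bases before a start, against 25.9% of the 27025 genes in the same collection. Each stretch runs 5′ to 3′ along the gene, and capitals mark the letters, which read TTCCTC where the match lies on the opposite strand. Of several matches in a window, the nearest to the start is shown, with any other that falls in the same stretch. The last pair held no match and their last 60 bases are shown for comparison.
Fcgr1: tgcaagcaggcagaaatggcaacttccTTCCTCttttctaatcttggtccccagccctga
Fcgr3: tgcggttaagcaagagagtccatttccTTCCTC
Fcgr4: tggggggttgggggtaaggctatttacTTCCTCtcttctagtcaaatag
Clec7a: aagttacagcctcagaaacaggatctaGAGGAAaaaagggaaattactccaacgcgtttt
Clec4a1: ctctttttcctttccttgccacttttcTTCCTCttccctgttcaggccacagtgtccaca
Clec4a3: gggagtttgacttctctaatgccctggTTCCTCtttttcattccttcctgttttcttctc
Clec12a: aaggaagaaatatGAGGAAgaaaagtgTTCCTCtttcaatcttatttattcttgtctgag
Fcgr2b: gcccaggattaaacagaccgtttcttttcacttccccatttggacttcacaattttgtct
Fcer1g: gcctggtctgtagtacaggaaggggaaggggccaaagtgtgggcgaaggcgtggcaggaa

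On GRCm38.p6 the stretches lie at chr3:96293992-96294051 on the minus strand for Fcgr1, chr1:171059404-171059436 on the minus strand for Fcgr3 and chr1:171018877-171018925 on the plus strand for Fcgr4. Those of Fcgr2b and Fcer1g lie at chr1:170976072-170976131 and chr1:171234350-171234409, both on the minus strand, in the same stretch of chromosome 1. The lectins' lie on chromosome 6, with Clec7a at chr6:129472843-129472902 on the minus strand and Clec12a at chr6:129350170-129350229, Clec4a1 at chr6:122921634-122921693 and Clec4a3 at chr6:122952567-122952626 on the plus strand. Counted from the start, the capitals span positions -6 to -1 in Fcgr3, -22 to -17 in Fcgr4, -61 to -56 and -47 to -42 in Clec12a, -50 to -45 in Clec4a3 and -55 to -50 in Fcgr1. In Clec7a they span -96 to -91 and in Clec4a1 -187 to -182, and a further match in Clec4a1, at -217 to -212, begins upstream of the stretch shown and is not marked. From a further start that RefSeq gives, they span -15 to -10 in Fcgr3 and -90 to -85 in Clec7a, and the other start of Clec4a3 had no match. A match of letters is a description and no binding was measured here.

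Libraries held 13548000 to 17281273 counts with a median of 15681340, and values are given as CPM, which divides each count by the library's total after TMM correction. No library pair was identical. Counts of single genes ran from 0 for Fcgr4 in MaCon5 and FeCon7, which allows up to 3 counts, to 5680 for Fcgr3 in FeAAD5. Markers of smooth muscle (Acta2, Myh11, Tagln, Cnn1 and Smtn) summed to between 11408 and 58539 CPM, so the defining genes of the aortic media were present in every library. Libraries FeAAD5, MaAAD7 and FeNonAD8 stood apart for these genes: FeAAD5 was the highest FeAAD library for 10 of 10 genes, MaAAD7 the highest MaAAD library for 9 and FeNonAD8 the highest FeNonAD library for 9. Where leaving out 1 of them moved a called fold of these genes by over 1.5 times, the value without it, or the range of values, is given. A gene was called a DEG where edgeR gave an adjusted p under 0.05 and its log2 fold change was 1 or more in size. The libraries come from separate mice.

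The levels in the control aorta show which receptors the untreated wall already held. Per kilobase of the longest GENCODE M21 transcript, the mean level in MaCon was highest for Fcer1g, at 16.3 ± 3.85 CPM per kb (SD, n = 10), and for Fcgr3, at 14.4 ± 3.83 CPM per kb. These neighbours in the order differed by less than their SD. Fcgr2b followed at 3.11 ± 0.669 CPM per kb, Clec4a1 at 1.98 ± 0.524 CPM per kb and Clec4a3 at 1.51 ± 0.602 CPM per kb. Fcgr1 at 1.06, Clec4n at 0.642, Clec7a at 0.597, Clec12a at 0.506 and Fcgr4 at 0.447 CPM per kb closed the order, and the last 4 lay within their SDs of each other. In FeCon the order by mean level per kb was the same, from 16.6 ± 4.63 CPM per kb for Fcer1g to 0.259 ± 0.146 CPM per kb for Fcgr4. In MaAAD the level of Clec4n reached 24.1 ± 20.9 CPM per kb (SD, n = 7) and in FeAAD 27 ± 52 CPM per kb (SD, n = 9), beside Fcgr2b at 23.3 and 21.2 CPM per kb. The seventh by mean in the controls, Clec4n was thus the third in AAD, within its SD of Fcgr2b. Without FeAAD5 its mean in FeAAD was 9.88 ± 8.26 CPM per kb (n = 8), below the 13.4 ± 6.79 CPM per kb of Fcgr2b, and by median it was the fourth in both sexes, at 13.6 CPM per kb in MaAAD and 9.56 CPM per kb in FeAAD.

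**Figure D1:**
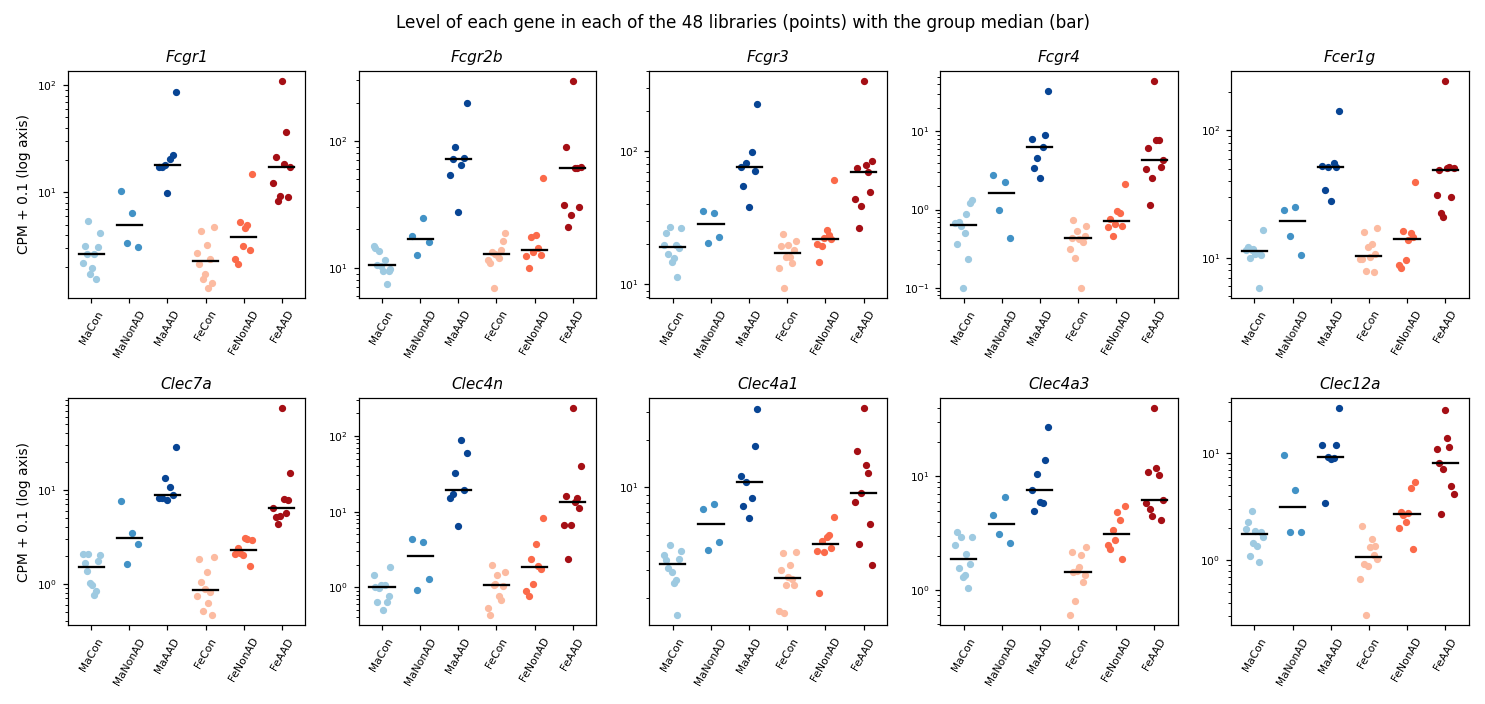
Level of each of the 10 genes in each of the 48 libraries, as CPM + 0.1 on a log axis, by group, with a black bar at the group median. In MaAAD every library lies above every MaCon library for 10 of 10 genes, the NonAD libraries overlap with Con for all 10, and the highest point of the group is FeAAD5 for 10 genes, MaAAD7 for 9 (MaAAD5 for Clec4n) and FeNonAD8 for 9 (FeNonAD5 for Clec7a).

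The comparison of AAD with Con asked how the wall with dissection or aneurysm differed from the untreated wall. In both sexes all 10 genes rose. In MaAAD the log2 fold changes ran from 2.12 to 5.22 with a median of 2.85, beside a median of -0.03 over all genes tested, and 9.18% of all genes were DEGs in this direction. In FeAAD they ran from 2.12 to 5.27 with a median of 3.09, beside 0.00 over all genes and 9.94% called higher. Clec4n and Fcgr4 had the 2 largest changes in each sex and Clec4a1 the smallest, though without FeAAD5 Fcer1g at 1.75 and Fcgr3 at 1.77 lay just below Clec4a1 at 1.78 in females. In bulk tissue, more cells of a type and more RNA per cell cannot be told apart.

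The high-affinity IgG receptor Fcgr1 had 1.47, 2.55 and 5.29 CPM as lowest, median and highest values in MaCon and 9.83, 18 and 86.3 CPM in MaAAD. In females the same values were 1.19, 2.18 and 4.66 CPM in FeCon and 8.23, 17.3 and 109 CPM in FeAAD. The groups did not overlap in either sex. Fcgr1 rose by 3.30 (SE 0.46) on the log2 scale in males, adjusted p = 3e-07 by edgeR, and by 3.43 (SE 0.45) in females, adjusted p = 5.02e-08. Without MaAAD7 the male change was 2.65 and without FeAAD5 the female change was 2.73.

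Fcgr4, the activating receptor for IgG2 and IgE, had the lowest level per kb in controls of both sexes, with at most 1.21 CPM in MaCon and 0.633 CPM in FeCon. It had 2.46, 6.29 and 33 CPM as lowest, median and highest values in MaAAD and 1.05, 4.23 and 43.9 CPM in FeAAD. Even the lowest AAD library of each sex lay above the highest control library. Fcgr4 rose by 4.06 (SE 0.58) in males, adjusted p = 4.65e-07 by edgeR, and by 4.72 (SE 0.60) in females, adjusted p = 2.69e-08. With 0 to 18 counts per control library, these changes rest on few reads in the control arm. Without MaAAD7 the male change was 3.29 and without FeAAD5 the female change was 3.74.

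Fcgr3, the low-affinity activating receptor, rose by 2.25 (SE 0.34) in males and 2.39 (SE 0.33) in females on the log2 scale, and its inhibitory partner Fcgr2b rose by 2.90 (SE 0.38) and 2.55 (SE 0.36). The values of Fcgr3 were 11.3, 19.2 and 26.8 CPM (lowest, median, highest) in MaCon, and 37.9, 75.8 and 225 CPM in MaAAD. Those of Fcgr2b were 7.35, 10.3 and 14.6 CPM in MaCon and 27.2, 72.1 and 199 CPM in MaAAD. In females Fcgr2b had 6.85, 12.7 and 18.8 CPM in FeCon and 20.8, 60.6 and 295 CPM in FeAAD, and Fcgr3 had 9.34, 17 and 23.8 CPM against 26.2, 69.9 and 336 CPM. No group of AAD overlapped with its controls. Without FeAAD5 the female change was 1.77 for Fcgr3 and 1.90 for Fcgr2b. The transcripts of this pair share 166 words of 50 bases, 9.58% of those of Fcgr3, so some reads fit both genes and their split is less certain.

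The gamma chain gene Fcer1g, on which Fcgr1, Fcgr3, Fcgr4 and Clec4n depend for their signal, had 5.75, 11.2 and 16.5 CPM in MaCon and 27.8, 51.8 and 141 CPM in MaAAD. In females it had 7.73, 10.3 and 17.1 CPM in FeCon and 20.7, 49.2 and 243 CPM in FeAAD. It rose 5.33-fold in males and 5.37-fold in females, with log2 changes of 2.41 (SE 0.36) and 2.43 (SE 0.34), the latter 1.75 without FeAAD5. The log2 changes of Fcgr1 and Fcgr4 were larger in both sexes, and no test was run between genes.

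Clec4n gave the largest change of the set. In MaCon it had 0.398, 0.904 and 1.75 CPM and in MaAAD 6.39, 19.1 and 87.2 CPM, whereas in FeCon it had 0.331, 0.961 and 1.9 CPM and in FeAAD 2.29, 13.4 and 231 CPM. The groups were separate in both sexes, though FeAAD3 at 2.29 CPM came close to the highest control. The log2 fold change was 5.22 (SE 0.67) in males, adjusted p = 7.13e-08 by edgeR, and 5.27 (SE 0.66) in females, adjusted p = 1.67e-08. Without FeAAD5 the female change was 3.82, and without MaAAD5, the highest MaAAD library for this gene, the male change was 4.78.

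Clec7a, the β-glucan receptor, had 0.658, 1.42 and 1.99 CPM in MaCon and 7.74, 8.81 and 28.4 CPM in MaAAD. In females it had 0.366, 0.751 and 1.84 CPM in FeCon and 4.27, 6.35 and 73.8 CPM in FeAAD. The lowest AAD library of each sex lay well above the highest control. It rose by 3.16 (SE 0.45) in males and by 3.96 (SE 0.45) in females, adjusted p = 2.58e-09 by edgeR in females, and by 2.94 in females without FeAAD5.

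Clec12a, the ITIM-bearing lectin, rose by 2.79 (SE 0.38) in males and 3.23 (SE 0.38) in females on the log2 scale, from medians of 1.64 and 0.965 CPM in the controls to medians of 9.08 and 7.94 CPM in AAD. Clec4a3 rose by 2.45 (SE 0.38) and 2.95 (SE 0.37), from medians of 1.79 and 1.34 CPM to 7.47 and 6.1 CPM. Clec4a1 rose by 2.12 (SE 0.31) in males, from a median of 3.2 to 10.7 CPM, and by 2.12 (SE 0.30) in females, from 2.57 to 9.06 CPM. All 3 had a median in AAD above the highest control of their sex. Clec4a1 was the exception to the separation of groups, since FeAAD9 at 3.14 CPM lay below the highest FeCon library at 3.8 CPM.

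Every AAD library lay above every control library for 10 of 10 genes in males, where 6.14% of all genes behaved so, and for 9 of 10 in females, where 3.63% did. All 10 genes stayed DEGs in both sexes when any of the 28 BAPN libraries was left out in turn and in DESeq2.

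**Figure D2:**
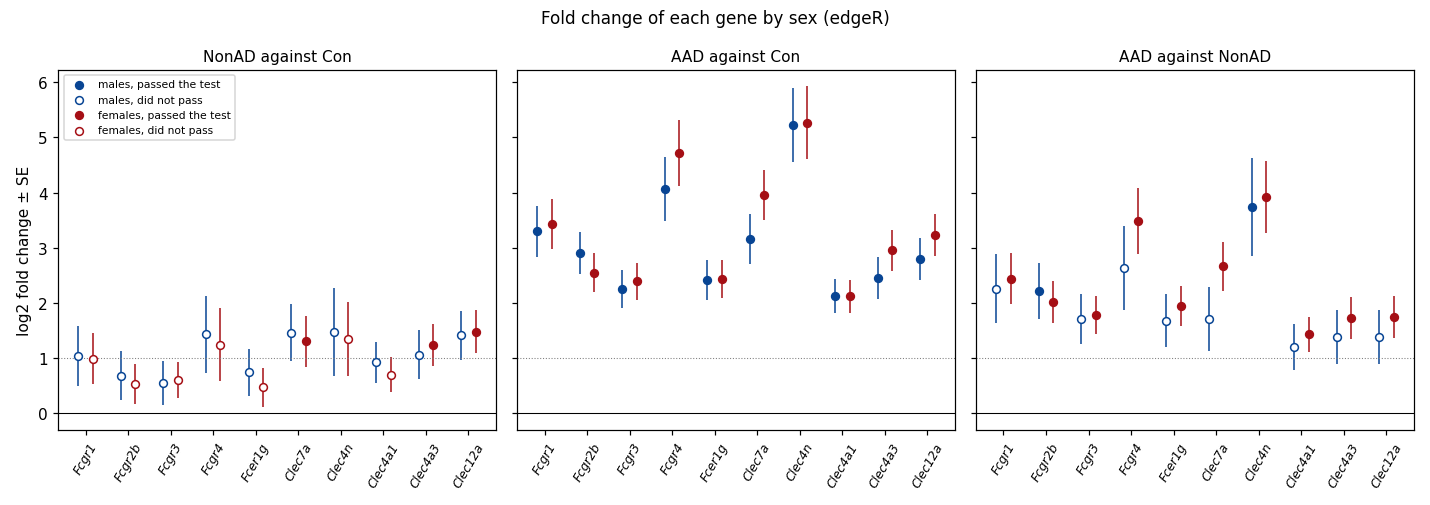
Log2 fold change ± SE (edgeR) of each gene in males (blue) and females (red) for NonAD against Con, AAD against Con and AAD against NonAD, where filled points passed the test and the dotted line marks a log2 fold change of 1. All points are filled for AAD against Con, with Clec4n and Fcgr4 highest, and 3 are filled for NonAD against Con, all in females.

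The comparison of NonAD with Con asked whether BAPN without a lesion already went with a change. In males none of the 10 genes passed the test and none did in DESeq2, while 0.381% of all genes were called higher, and 5 genes had an unadjusted p under 0.05. The 10 log2 fold changes lay between 0.54 and 1.47 with a median of 1.05, and the lowest adjusted p, that of Clec12a, was 0.138. For Clec12a the values were 9.58, 1.72, 4.4 and 1.74 CPM in MaNonAD1 to MaNonAD4, against 0.869 to 2.8 CPM in MaCon. For Clec7a they were 7.49, 1.53, 3.42 and 2.54 CPM, against 0.658 to 1.99 CPM. For Fcgr1 they were 10.1, 3.25, 6.38 and 3.01 CPM, against 1.47 to 5.29 CPM. MaNonAD1 and MaNonAD3 lay above every MaCon library for 10 of 10 genes, whereas MaNonAD2 did so for 0 and MaNonAD4 for 3. The macrophage markers summed to 1013 and 956 CPM in the former pair and to 696 and 658 CPM in the latter. The share of all genes that lie above every control in a single library is not given here. Without MaNonAD1 the log2 change of Clec12a was 0.67 and that of Clec7a 0.87. When FeAAD5, which is in neither group but shares the estimate of spread, was left out, 1 gene passed the test, Clec7a, at adjusted p = 0.031 by edgeR.

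In females 3 genes rose in NonAD, where 1.67% of all genes were called higher, and all were lectins. Clec12a rose by 1.48 (SE 0.39) on the log2 scale, adjusted p = 0.00806 by edgeR, with 1.18, 2.61 and 5.22 CPM as lowest, median and highest values in FeNonAD and 0.208, 0.965 and 1.99 CPM in FeCon. Clec4a3 rose by 1.23 (SE 0.38), adjusted p = 0.0229, with 1.77, 2.98 and 5.35 CPM against 0.498, 1.34 and 2.3 CPM. Clec7a rose by 1.30 (SE 0.46), adjusted p = 0.0487, with 1.44, 2.17 and 2.97 CPM against 0.366, 0.751 and 1.84 CPM. Of the 8 FeNonAD libraries, 6 lay above every control for Clec12a, 6 for Clec4a3 and 7 for Clec7a, and 7 also did for Clec4a1, which was not called. The share of all genes with as many libraries above every control is not given here. The remaining 7 genes had log2 changes of 0.47 to 1.35 and adjusted p of 0.127 or more by edgeR, and for Fcgr2b and Fcer1g only FeNonAD8 lay above every control.

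FeNonAD8 held 50.4 CPM of Fcgr2b, where the next FeNonAD library held 17.9 CPM, and 39.6 CPM of Fcer1g, where the next held 16.1 CPM. Its macrophage markers summed to 1119 CPM and its monocyte markers to 51.5 CPM, the highest of the group in both. For Clec7a it was not the highest, at 2.8 CPM below 2.97 CPM in FeNonAD5. Without FeNonAD8 the change of Fcgr2b was 0.12 in place of 0.53, that of Fcer1g 0.12 in place of 0.47, and that of Fcgr1 0.51 in place of 0.99. The 3 lectins moved less, to 1.31 for Clec12a, 1.10 for Clec4a3 and 1.25 for Clec7a, and of these Clec12a alone still passed, at adjusted p = 0.0261 by edgeR, while Clec4a3 was at 0.0572 and Clec7a at 0.0786. Without FeNonAD5 Clec12a again passed alone, with Clec4a3 at 0.0515 and Clec7a at 0.0861. Clec12a was a DEG in 28 of 28 fits that left out 1 BAPN library, Clec4a3 in 26 and Clec7a in 14.

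**Figure D3:**
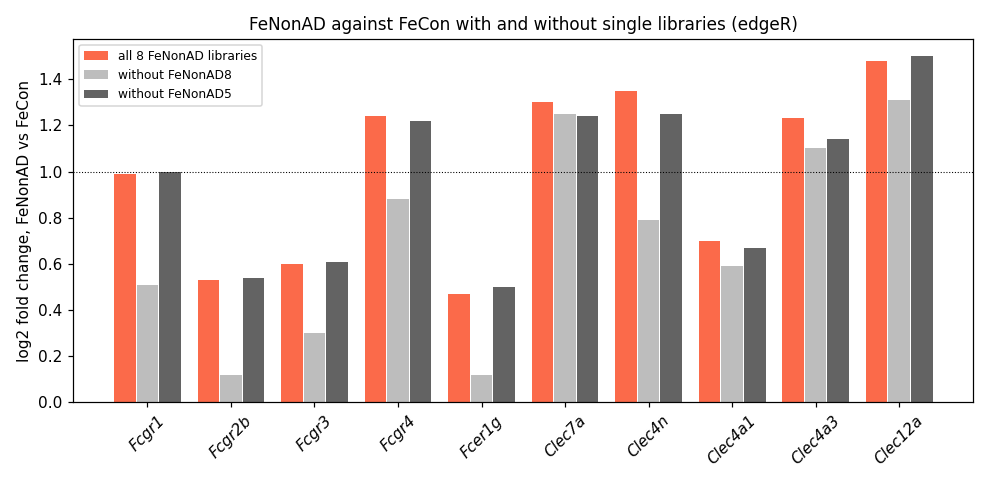
Log2 fold change of each gene in FeNonAD against FeCon (edgeR) with all 8 FeNonAD libraries, without FeNonAD8 and without FeNonAD5, with a dotted line at 1. Bars of Fcgr2b and Fcer1g fall from 0.53 and 0.47 to 0.12 without FeNonAD8, whereas those of Clec7a, Clec4a3 and Clec12a stay above 1.

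The step from NonAD to AAD compared BAPN-treated mice with and without dissection or aneurysm. In females all 10 genes rose again, with log2 fold changes of 1.43 for Clec4a1 to 3.92 (SE 0.66) for Clec4n, a median of 1.99, and 6.79% of all genes called higher. The groups overlapped for 9 genes. Clec7a was the 1 gene without overlap, with at least 4.27 CPM in FeAAD and at most 2.97 CPM in FeNonAD, and 0.166% of all genes behaved so. Without FeAAD5 all 10 genes still passed and their female changes ran from 1.08 for Clec4a1 to 2.49 for Fcgr4, with Clec4n at 2.46. Without FeNonAD8 the changes of Clec4n and Fcgr4 were 4.48 and 3.84.

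In males 2 genes passed in this step, Fcgr2b with a log2 fold change of 2.22 (SE 0.51) and Clec4n with 3.74 (SE 0.89), both at adjusted p = 0.0497 by edgeR, with 0.353% of all genes called higher. The other 8 had log2 changes of 1.20 to 2.63 and adjusted p between 0.0507 and 0.107. With no filter on low counts, or with the compared groups alone in the fit, 0 genes passed. In DESeq2 8 genes passed, and leaving out any 1 of 28 BAPN libraries gave between 0 and 9, and all 10 had an unadjusted p under 0.05. It was 0 without MaNonAD2, MaNonAD3, MaNonAD4, MaAAD3, MaAAD5, MaAAD6 or MaAAD7, 6 or 7 without MaNonAD1, MaAAD1, MaAAD2 or MaAAD4, and 9 without FeAAD5, which shares the estimate of spread alone. Without the other female BAPN libraries it was 0, 4 or 6. Adjusted p values were tied, at 0.0497 for Fcgr2b and Clec4n and at 0.0507 for Fcgr1 and Fcgr3 by edgeR, so several genes can cross 0.05 together. The share of all genes called in these other fits is not given here. Every MaAAD library lay above every MaNonAD library for 5 genes, Fcgr2b, Fcgr3, Fcer1g, Clec7a and Clec4n, where 2.97% of all genes behaved so.

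Males and females were then compared directly, among the mice alive at the end. None of the 10 genes passed the test between MaCon and FeCon, where 1.51% of all genes were called in either direction, between MaNonAD and FeNonAD, where 0.0485% were, or between MaAAD and FeAAD, where 0.0693% were. The sexes did not pass the test for any of the 10 genes in the NonAD response, with 0.298% of all genes called, in the AAD response, with 0.52%, or in the step from NonAD to AAD, with 0% by edgeR. In all 6 comparisons 0 of the 10 genes had an unadjusted p under 0.05 and 0 were called by DESeq2. In the AAD response the male minus female log2 difference of Clec7a was -0.81, with an approximate 95% interval of -2.02 to 0.41, and 0.22 (SE 0.45) without FeAAD5. Without that library Clec4n was at 1.40 (SE 0.70) in place of -0.05 and Fcgr2b at 1.01 (SE 0.41) in place of 0.35. Between MaAAD and FeAAD the male minus female log2 differences of the 10 genes ran from -0.26 to 0.23 with all libraries and from 0.55 for Clec12a to 1.29 for Clec4n without FeAAD5, higher in males for all 10. Still 0 of the 10 genes passed in any of the 6 comparisons by edgeR, while 6 between MaAAD and FeAAD and 1, Fcgr2b, in the AAD response had an unadjusted p under 0.05. These values kept MaAAD7, the highest MaAAD library for 9 genes. Without MaAAD7 the male AAD changes were smaller, such as 2.65 in place of 3.30 for Fcgr1 and 3.29 in place of 4.06 for Fcgr4. The male minus female differences without MaAAD7 are not given here. In the AAD response with all libraries, the interval was -0.79 to 0.78 for Clec4a1 and -1.88 to 1.78 for Clec4n. A difference between the sexes of several fold in the AAD response was thus not detectable for Clec4n. The passing of 3 lectins in FeNonAD and of none in MaNonAD is therefore not a shown sex difference, and for Clec12a the male minus female difference in that response was -0.07, with an interval of -1.22 to 1.07.

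The balance of activating to inhibitory receptor was read as the log2 ratio of each activating receptor's count to that of Fcgr2b in the same library, which is free of library scaling. The ratios of Fcgr1 and Fcgr4 to Fcgr2b rose in FeAAD. That of Fcgr4 went from -5.41 ± 1.08 (SD, n = 10) in FeCon to -4.48 ± 0.47 (n = 8) in FeNonAD and -3.39 ± 0.51 (n = 9) in FeAAD. FeAAD exceeded FeCon by 2.02, two-sided exact permutation p = 2.17e-05 and 0.000585 after adjustment over 27 tests, and exceeded FeNonAD by 1.09, exact adjusted p = 0.00518. FeNonAD exceeded FeCon by 0.93, exact adjusted p = 0.0463, which no longer passed with a pseudocount of 0.1 or without any of 7 of the 8 FeNonAD libraries, all but FeNonAD3. In males the ratio of Fcgr4 was -4.67 ± 1.52 (n = 10) in MaCon and -3.41 ± 0.73 (n = 7) in MaAAD, a difference of 1.26 at exact p = 0.0497 and adjusted p = 0.164. In MaCon5 and FeCon7, where Fcgr4 was at 0, the ratio depends on the pseudocount of 0.5.

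The ratio of Fcgr1 to Fcgr2b was -2.46 ± 0.62 in FeCon and -1.53 ± 0.39 in FeAAD, a difference of 0.94 at exact adjusted p = 0.00518, and FeAAD exceeded FeNonAD by 0.47 at exact adjusted p = 0.0463. The latter no longer passed with the smaller pseudocount or in 11 of 28 tests that left out 1 BAPN library. In males it went from -2.06 ± 0.51 to -1.72 ± 0.37, a difference of 0.34 at exact adjusted p = 0.327. The ratio of Fcgr3 to Fcgr2b went the opposite way in males, from 0.79 ± 0.30 in MaCon to 0.17 ± 0.38 in MaAAD, a fall of 0.62 at exact adjusted p = 0.00659. In females it was 0.41 ± 0.28 in FeCon and 0.34 ± 0.28 in FeAAD, a difference of -0.07 at exact adjusted p = 0.636. MaCon exceeded FeCon by 0.38 in this ratio, exact adjusted p = 0.0425. Whether these ratios changed differently in the sexes was not tested, and the sharing of reads between Fcgr3 and Fcgr2b touches this ratio most.

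**Figure D4:**
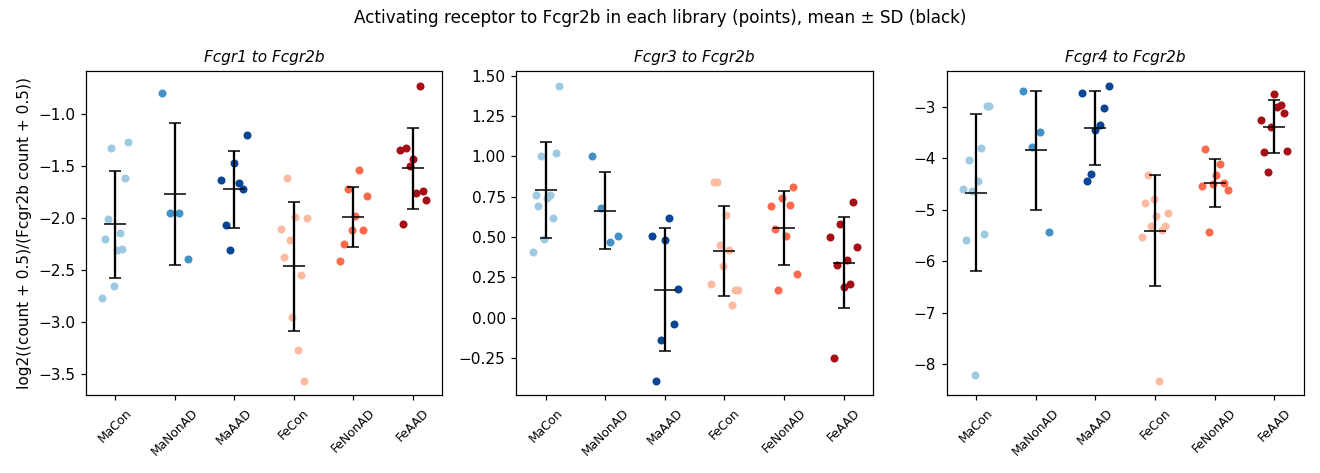
Log2 ratio of the count of Fcgr1, Fcgr3 and Fcgr4 to that of Fcgr2b, with 0.5 added to each, in every library, with mean ± SD in black. The ratio of Fcgr4 climbs from a mean of -5.41 in FeCon to -3.39 in FeAAD, and that of Fcgr3 falls from 0.79 in MaCon to 0.17 in MaAAD.

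Markers of myeloid cells moved with the 10 genes. Of 8 macrophage markers, 7 were called higher in AAD than in Con in each sex, beside 9.18% of all genes in males and 9.94% in females. Mertk went the other way, at -0.72 (SE 0.15) in males and -0.59 (SE 0.14) in females, with adjusted p = 0.000162 and 0.000436 by edgeR, and missed the call on the size of the change. The summed level of the 8 markers ran from 446 to 723 CPM in MaCon, 916 to 3869 CPM in MaAAD, 474 to 799 CPM in FeCon and 772 to 5769 CPM in FeAAD. All 4 monocyte markers and all 4 pan-leukocyte markers were called higher in both sexes. The neutrophil markers summed to at most 15.3 CPM in MaCon and 7.03 CPM in FeCon and to between 8.6 and 242 CPM in MaAAD and 6.62 and 889 CPM in FeAAD, with 5 of 7 tested called higher and Ngp called lower in males, and 6 of 7 called higher in females. Their part in the rise of the 10 genes was not tested.

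To describe the genes beside the macrophage markers, the mean log2(CPM + 1) of the 8 markers in a library, here the macrophage index, was subtracted from that of each gene. The index rose from 5.72 ± 0.29 in MaCon to 7.25 ± 0.58 in MaAAD and from 5.77 ± 0.30 in FeCon to 7.02 ± 0.65 in FeAAD. Relative to it, Clec4n was 2.27 higher in MaAAD than in MaCon and 1.85 higher in FeAAD than in FeCon. Fcgr1 was 1.11 and 1.31 higher, and Fcgr2b 1.08 and 0.75 higher. Clec4a1 was 0.14 and 0.30 higher, where single AAD libraries had an SD of 0.41 and 0.37. Between NonAD and Con the gene minus index values differed by -0.07 to 0.31 in males and 0.04 to 0.63 in females, with Clec12a, Clec4a3 and Clec7a highest in females. With Mertk left out of the index, its rise was 1.85 in males and 1.52 in females, Clec4n was 1.95 and 1.58 higher relative to it, Fcgr1 0.79 and 1.05 and Fcgr2b 0.76 and 0.49, while Clec4a1 was at -0.18 and 0.03 and Clec4a3 at -0.02 in males. No test was run on these values, and on this scale low levels such as those of Fcgr4 are compressed. Without the index, all 10 genes had larger log2 fold changes than the median macrophage marker in AAD against Con, which was 1.80 in males and 1.47 in females. The highest macrophage marker was Cd68 in males, at 2.58, which 6 of the 10 genes exceeded, and Lyz2 in females, at 2.29, which 9 exceeded.

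**Figure D5:**
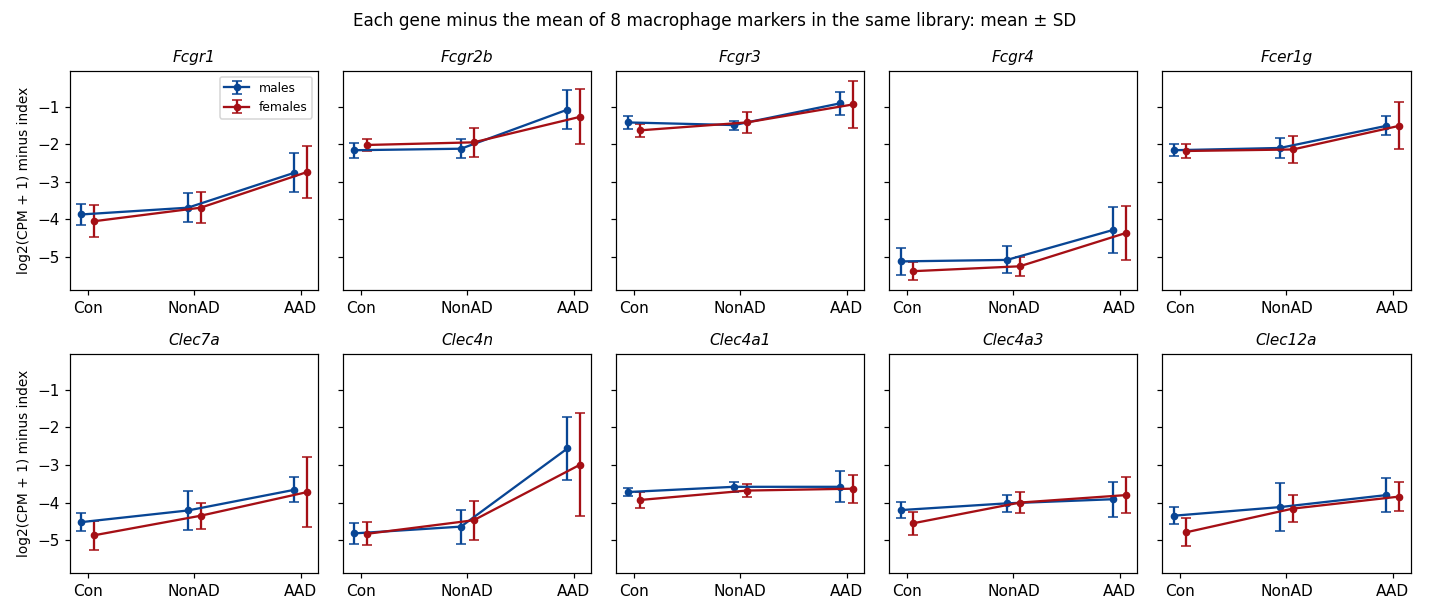
Log2(CPM + 1) of each gene minus the mean of 8 macrophage markers in the same library, as mean ± SD by stage in males (blue) and females (red). Clec4n climbs from about -4.82 to -2.56 in males and from -4.83 to -2.99 in females between Con and AAD, while Clec4a1 stays between -3.93 and -3.58.

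Single libraries showed that the genes did not move as a fixed block. FeAAD9 held 40.1 CPM of Clec4n, the second highest FeAAD value, and 15.1 CPM of Clec7a, also the second highest, yet 3.14 CPM of Clec4a1, the lowest. Its macrophage markers summed to 972 CPM, its neutrophil markers to 202 CPM and its B cell markers to 28.6 CPM. FeAAD2 held the second highest Clec4a1 value, 16.9 CPM, with 5.07 CPM of Clec7a, below the group median of 6.35 CPM. MaAAD5 held 87.2 CPM of Clec4n, above the 60.1 CPM of MaAAD7, with 8.5 CPM of Clec4a1, below the median of 10.7 CPM. In FeAAD5 the macrophage markers summed to 5769 CPM and the neutrophil markers to 889 CPM, and in MaAAD7 to 3869 CPM and 242 CPM, the highest of their groups.

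After subtraction of group means, Pearson correlations of log2(CPM + 1) between pairs of the 10 genes over the 48 libraries ran from 0.51, for Clec4n and Clec12a, to 0.93, for Fcgr3 and Fcer1g, with a median of 0.78 over 45 pairs. Without FeAAD5, MaAAD7 and FeNonAD8 they ran from 0.22 to 0.84 with a median of 0.64. The points share libraries and their cell content, so no p is given. The genes most like each in the rest of the table were named by the same measure. Fcer1g was nearest to Tyrobp, which encodes the other ITAM adaptor of myeloid cells (DAP12), at 0.96 over 48 libraries and 0.92 over 45. Clec4n was nearest to Lilrb4a at 0.94 and to Clec4d, another lectin, at 0.92. Fcgr1 was nearest to Cyth4 at 0.93 and Fcgr4 to Cd300c2 at 0.91. Fcgr3 was nearest to Ctss at 0.94 and Fcgr2b to Ccl9 at 0.94. Clec4a1 was nearest to Ms4a6b at 0.89, Clec4a3 to Ly86 at 0.89, Clec12a to Ms4a7 at 0.88 and Clec7a to Cd101 at 0.88, which fell to 0.70 over 45 libraries.

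The wider pathway was followed through lists of related genes. Of 20 genes of ITAM signalling, 16 were called higher in MaAAD and 15 in FeAAD against Con, with medians of 2.08 and 1.97, and 0 in either NonAD group by edgeR or DESeq2, where 7 of the 20 had an unadjusted p under 0.05 in each. Tyrobp rose by 2.55 (SE 0.41) in males and 2.88 (SE 0.40) in females, or 1.84 without FeAAD5, and Syk, the kinase that binds the phosphorylated ITAM, by 1.67 (SE 0.24) and 1.77 (SE 0.23). Pik3cd, a leukocyte PI3-kinase, rose by 1.40 and 1.55. Of 11 phosphatases and receptors of the ITIM arm, 8 were called higher in each sex in AAD and 0 in either NonAD group by edgeR or DESeq2, with 3 at an unadjusted p under 0.05 in each. Inpp5d (SHIP1), the phosphatase recruited by Fcgr2b, rose by 2.06 (SE 0.25) and 1.72 (SE 0.24), Sirpa by 1.47 and 1.13, the latter 0.86 and no longer called without FeAAD5, and Pirb by 2.92 and 2.86. Beside these counts, 9.18% and 9.94% of all genes were called higher in males and females.

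Of 9 other Fc receptor genes tested, 4 rose in MaAAD and 6 in FeAAD, beside 9.18% and 9.94% of all genes called higher. Fcrls rose by 2.14 in each sex, from 14.7 ± 4.35 to 64.8 ± 28 CPM in males. Fcmr, the IgM receptor of lymphocytes, was called higher in both NonAD groups too, by 3.00 (SE 0.58) in males and 1.91 (SE 0.56) in females, at no more than 1.38 CPM on average. B cell markers, which can accompany Fcmr and also Fcgr2b, were called higher for 4 of 5 genes in MaNonAD, 1 in FeNonAD, 3 in MaAAD and 5 in FeAAD, and their summed level did not exceed 28.6 CPM in any BAPN library. Their part in the levels of these receptors was not tested. Of all genes, 0.381% were called higher in MaNonAD and 1.67% in FeNonAD. Fcrlb was near 0 in controls and averaged 2.19 ± 2.45 CPM (SD) in MaAAD and 3.49 ± 6.21 CPM in FeAAD, an SD above the mean in each. Of the genes for antibody constant regions and the J chain, Jchain alone was analysed here and was called in 0 of the 4 comparisons with Con by edgeR or DESeq2, with an unadjusted p under 0.05 in 1 of them, FeAAD.

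Of 17 other myeloid C-type lectins tested, 9 rose in each sex in AAD, beside 9.18% of all genes in males and 9.94% in females. They were the same genes, Clec4a2, Clec4b1, Clec4d, Clec4e, Clec5a, Clec9a, Clec10a, Mrc1 and Cd209a. Clec4d (MCL), whose product pairs with those of Clec4n and Clec4e, rose by 5.85 (SE 0.84) in males and 5.06 (SE 0.76) in females, or 3.57 without FeAAD5, a size near that of Clec4n. Mrc1, the mannose receptor of resident macrophages, rose by 1.99 and 1.56, and Clec10a by 1.30 and 1.29. In FeNonAD Clec9a and Cd209a were called higher, 2 genes of dendritic cells, beside 1.67% of all genes. Of 16 C-type lectins of other cells, 5 rose in each sex, among them Sele by 2.36 and 1.11, the latter 0.93 and not called without FeAAD2, and Olr1 by 5.56 and 4.73, while Clec3b, which encodes tetranectin, was called lower in FeAAD, at -1.08 (SE 0.27), and was at -0.81 in MaAAD. The call was lost at -0.94 without FeAAD5 and at -0.93 without FeAAD9.

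Of the remaining marker lists, 5 of 6 dendritic cell genes rose in each sex in AAD and 2 in FeNonAD, and 1 monocyte gene, Ccr2, rose in FeNonAD. The share of all genes called higher was 9.18% in MaAAD, 9.94% in FeAAD and 1.67% in FeNonAD. Of 5 mast cell genes, 0 were called in MaAAD and 1, Kit, in FeAAD by edgeR and by DESeq2, with 1 at an unadjusted p under 0.05 in each. Of 5 T cell genes, 0 were called in either sex by edgeR, with 0 in MaAAD and 1 in FeAAD at an unadjusted p under 0.05 and 0 and 1 called by DESeq2. Of 4 endothelial genes, 0 were called by edgeR or DESeq2, with 2 in MaAAD and 4 in FeAAD at an unadjusted p under 0.05, and the 4 NK cell genes fell under the edgeR filter on low counts, while DESeq2, run without that filter, called 0 of them in MaAAD and 1, Klrb1c, in FeAAD. Smooth muscle genes fell for 3 of 5 in MaAAD and 2 of 5 in FeAAD, and 2 of 4 fibroblast genes rose in each. The share of all genes called lower is not given here for any list. Red cell genes rose for 4 of 4 in FeAAD, by 3.41 to 3.90, and FeAAD2 held 20667 CPM of them, where the other 8 held 185 to 1657 CPM and FeCon 114 to 543 CPM. Without FeAAD2 the 4 were still called, at 1.25 to 1.45, and 2, Hbb-bs and Hbb-bt, were also called in MaAAD. Heart muscle genes fell for 3 of 4 in FeAAD. In FeNonAD their median log2 fold change was -1.82, with 0 called by edgeR, 1 by DESeq2 and 3 at an unadjusted p under 0.05 by edgeR. With all libraries 0 red cell and 0 heart muscle genes were called in MaAAD, in both sexes 0 of 3 brown fat genes, and in each case 0 had an unadjusted p under 0.05 by edgeR and 0 were called by DESeq2.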

How the data were processed

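Strand-specific mRNA libraries of perfused, snap-frozen thoracic aorta, 1 per mouse, were sequenced on a DNA NanoBall platform. The authors deposited expected counts per gene for 48 libraries, not scaled to library size. The submitters' processing notes name Bowtie2, RSEM 1.3.1 and GRCm39. Of the values, 4.99% were not whole and all were rounded. The fit used edgeR 4.0.16 in R 4.3.3, with filterByExpr, TMM factors of 0.873 to 1.08 and the robust quasi-likelihood test with 1 mean for each of 6 groups over all 48 libraries. Adjustment was by Benjamini-Hochberg over 14431 genes. Standard errors and intervals are approximate, from the fold change and the F statistic, and intervals and floors cover no technical repeats. On simulated data the test was checked before use. The members and gene lists were chosen with earlier results of these data known. The genes named are all 10 members, the 3 genes of highest mean level of each related list called in both AAD comparisons, members of a list called against its direction, and the 2 genes most like each member, of which some are not reported here. Ratios used exact permutation tests. The alternatives tried were DESeq2 1.42.0, edgeR with size factors from DESeq2, a fit of all genes without filtering, a call on adjusted p with no fold limit, non-robust dispersion, a block for the replicate number, a fit of just the groups being compared, and dropping each of 28 BAPN libraries in turn, for the ratios in part chosen after seeing the data. Control libraries were not left out. Leaving out FeAAD5, MaAAD7 and FeNonAD8 together in the correlations, or singly in the levels per kb, was chosen after seeing the data, as were the index without Mertk and the red cell genes without FeAAD2. Same-numbered libraries did not deviate together: correlations over shared numbers averaged -0.0661 to 0.16, and in no comparison did every pair exceed 0.1, so the numbers were not taken as pairs. Shared words of 50 bases were counted in GENCODE M21 transcripts. Python 3.11.15, numpy 2.4.6, pandas 2.3.3 and matplotlib 3.10.9 were used. Some immunoglobulin genes are not analysed here.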

Additional observations from a re-analysis of the deposited data

Results flagged for a closer look

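A library was picked out where its gap to the nearest library of its group, over the range of the group, exceeded Dixon's 95% value. Of 78 groups of values examined, for 10 genes and 3 ratios in 6 groups, 26 were picked out. The rule's rate of about 1 in 20 assumes independent, normal values. CPM were not put on a log scale and the genes correlated, so 1 in 20 is no baseline for the 26. All 24 flags on gene levels were the highest of their group and fell on 3 libraries.

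FeAAD5 was far above the other FeAAD libraries for all 10 genes, with 109 CPM of Fcgr1, 295 of Fcgr2b, 336 of Fcgr3, 43.9 of Fcgr4, 243 of Fcer1g, 73.8 of Clec7a, 231 of Clec4n, 31.4 of Clec4a1, 39.8 of Clec4a3 and 25 of Clec12a. MaAAD7 was far above the other MaAAD libraries for 8 genes, with 86.3 CPM of Fcgr1, 199 of Fcgr2b, 225 of Fcgr3, 33 of Fcgr4, 141 of Fcer1g, 28.4 of Clec7a, 27 of Clec4a3 and 26.1 of Clec12a. FeNonAD8 was far above the other FeNonAD libraries for 6 genes, with 14.6 CPM of Fcgr1, 50.4 of Fcgr2b, 60.9 of Fcgr3, 2.04 of Fcgr4, 39.6 of Fcer1g and 8.22 of Clec4n. It was not picked out for Clec7a, Clec4a1, Clec4a3 or Clec12a.

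The log2 ratio of Fcgr4 to Fcgr2b was far below the other libraries of its group in MaCon5, at -8.20, and in FeCon7, at -8.32, the libraries in which Fcgr4 was at 0 counts.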

How the results depend on the processing

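The counts of the 10 genes called were within 1.5 times the reported count under the other tests, scalings, filters and calling rules, the replicate block and the fit of compared groups, except in MaAAD against MaNonAD. There the count of 2 was 4 with DESeq2's size factors, 8 in DESeq2 and 0 without the filter on low counts, with the replicate block or with the compared groups only. Leaving out each BAPN library in turn gave 0 to 9 for this comparison, 1 to 3 for FeNonAD against FeCon and 0 to 1 for MaNonAD against MaCon. In FeNonAD against FeCon the count of 3 was 2 without the filter and 4 with the compared groups only. No member's fold change within a sex reversed. Of 27 ratio tests, 7 passed, 5 with a pseudocount of 0.1, 0 with the replicate block, where libraries with shared numbers alone entered, and 5 to 8 when each of 28 BAPN libraries was left out, where 5 of the 7 passed in all 28 tests. Of these 5, that of Fcgr3 to Fcgr2b in MaCon against FeCon holds no BAPN library. Leaving a BAPN library out could change only its adjustment. With the replicate block the counts were 10 for both AAD against Con comparisons and for FeAAD against FeNonAD, 3 for FeNonAD and 0 for MaNonAD against Con. The cause of these shifts was not tested. At most 31 counts of Clec7a, 44 of Clec12a and 18 of Fcgr4 in any control library limit the precision of the NonAD comparisons.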
